A study of Mus musculus with 15 samples.

Results

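Immediate early transcription factors and 2 companion early genes were examined in mouse hearts after 5 months of methamphetamine (Meth). The set holds 10 genes, Fos, Fosb, Jun, Junb, Egr1, Atf3, Nr4a1, Ier2, Ier3 and Myc, of the 18350 genes named on the array. Its members were all non-control probes whose accession in the array design matches 1 of these symbols, which gave 13 probes of 41174. All 13 passed the filter of being well above background on at least 3 arrays. Where a gene has several probes, the lead probe is the one with the highest mean signal, and the other probes are given beside it.

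Immediate early genes are transcribed within minutes of a stimulus, without new protein synthesis, from promoters that serum response factor and CREB already occupy. Their products are short-lived proteins, many of them transcription factors, that switch on a later wave of genes. In the heart they are known to respond to stretch, ischaemia and adrenergic stimulation, and handling and dissection of tissue can also induce them.

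Hearts came from C57BL/6 mice that were 8 to 10 weeks old at the start. Meth was injected into the peritoneum once a week for 20 weeks, with the dose raised in steps to 40 mg/kg, and control mice received phosphate-buffered saline (PBS) on the same schedule. Arrays from 4 Meth males, 4 PBS males, 4 Meth females and 3 PBS females were used, and the males were split evenly between trial 1 and trial 2. The labels of Meth females 3 and 4 and PBS female 3 give trial 1 in the title and trial 2 in the source name, and the title was followed. These 3 arrays were on a slide of their own, slide 4, scanned in a separate session. Their 75th percentile signals, before normalization, were 438 to 589, against 307 to 329 in the other females. The main fit held no term for slide or scan session. Heart tissue was homogenised, so each value is an average over all cell types, and in such bulk samples fewer cells of a type and less RNA per cell cannot be told apart. By the study's methods, hearts were taken after 20 weeks, so each group is read here as mice that lived through the schedule. The study reported early deaths only among Meth males, so by this reading that group alone was narrowed to survivors. The interval between the last injection and death and the hour of death are not given in the sources used here.

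Values are the log2 signal of a probe minus the 75th percentile of log2 signals on the same array, so 0 marks that percentile, and the level of 1 probe cannot be set against that of another. Cardiomyocyte markers were well above background on all 15 arrays and their summed signal overlapped between the groups. Airway epithelium markers did not overlap between the male groups: their summed signal, relative to the 75th percentile, was 35.2 to 171 in Meth males and 1.67 to 2.22 in PBS males, against 2.54 to 5.82 in Meth females and 3.23 to 4.91 in PBS females. Of the 9 on the array, 4 were not well above background on any PBS male array. Of the 8 tested, 7 were called higher in Meth males (background 1.11% of all probes) and 1, Bpifa1, in Meth females (0.758%). Foxj1 and Cdh1 were well above background in Meth males only, and Bpifa1 on Meth arrays only. These markers passed the filter through the groups where they are high, so their calls are not independent of it. Red blood cell markers summed to 237 to 747 in Meth males, 261 to 316 in PBS males, 280 to 614 in Meth females and 240 to 315 in PBS females.

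The promoters of 7 members were found in the RefSeq table used here. The 250 bases before a start of transcription listed there are shown for 4 of them, in GRCm38.p6. These are Fos as the reference early gene and the 3 members with the largest estimated differences between Meth and PBS in females. The Nr4a1 window lies inside the span of the gene, chr15:101253902-101274795, so it precedes a start within the locus and not its first base. That of Fosb, counted below, partly overlaps the span of its gene. Capitals mark the cyclic AMP response element core (TGACG or its reverse complement CGTCA), the EGR site (GCGTGGGCG or GCGGGGGCG) and the TATA box (TATAAA). Each motif was searched on both strands, and no match in these windows overlaps another.
Fos (chr12:85473640-85473889, plus strand): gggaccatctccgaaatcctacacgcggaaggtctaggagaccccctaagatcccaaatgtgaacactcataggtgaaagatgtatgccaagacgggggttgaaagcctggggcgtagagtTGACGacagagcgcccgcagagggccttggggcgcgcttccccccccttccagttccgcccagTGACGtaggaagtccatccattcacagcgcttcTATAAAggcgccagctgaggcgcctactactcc
Nr4a1 (chr15:101266596-101266845, plus strand): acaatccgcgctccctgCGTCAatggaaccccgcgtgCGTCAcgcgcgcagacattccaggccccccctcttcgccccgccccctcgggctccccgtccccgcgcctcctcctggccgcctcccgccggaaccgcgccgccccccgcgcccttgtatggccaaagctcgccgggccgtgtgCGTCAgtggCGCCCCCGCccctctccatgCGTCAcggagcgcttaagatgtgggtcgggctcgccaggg
Atf3 (chr1:191183334-191183583, minus strand): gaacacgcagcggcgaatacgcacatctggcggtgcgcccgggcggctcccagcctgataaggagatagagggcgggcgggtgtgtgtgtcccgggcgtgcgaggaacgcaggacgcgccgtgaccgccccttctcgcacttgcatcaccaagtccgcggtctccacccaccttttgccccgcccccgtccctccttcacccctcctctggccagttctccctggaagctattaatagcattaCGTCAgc
Ier3 (chr17:35821463-35821712, plus strand): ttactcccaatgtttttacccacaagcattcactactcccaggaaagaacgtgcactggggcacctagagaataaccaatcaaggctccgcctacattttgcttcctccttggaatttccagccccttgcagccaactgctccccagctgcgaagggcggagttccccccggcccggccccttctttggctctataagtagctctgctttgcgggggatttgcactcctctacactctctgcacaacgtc

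The cyclic AMP response element core was present in the windows of 5 of the 7 members, Fos, Fosb, Junb, Atf3 and Nr4a1, and in 17.8% of the 32851 promoter windows of the same length. The window of Nr4a1 held 4 copies, that of Fos 2, and that of Atf3 a single copy beginning 7 bases before the start. An EGR site was found before Fosb and Nr4a1 and in 3.06% of all windows, and a TATAAA box before Fos and in 12.4% of all windows. Ier3 and Jun held none of the motifs searched. The full element TGACGTCA (1.55% of all windows), the AP-1 site TGANTCA (6.75%), the CArG box that serum response factor binds (1.47%), the canonical NF-kB site (0.140%) and the E-box CACGTG (6.02%) were in none of the 7 windows, which says only that these letters are absent from these stretches.

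Across the set, Ier3 was the member that passed the threshold of an adjusted p under 0.05. It was higher after Meth in both sexes, 1.64-fold in males and 1.87-fold in females, while the other 9 members did not pass the threshold in either sex. The estimates of Fos, Fosb, Junb and Ier2 lay between -0.49 and 0.15 on the log2 scale in both sexes. The estimates of Nr4a1 were below 0 and those of Myc above 0 in both sexes without passing, and Atf3 had estimates of opposite sign in males and females. In each sex 1 of the 10 members was called at an adjusted p under 0.05, against a background of 1.11% of all probes in males and 0.758% in females.

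**Figure D1:**
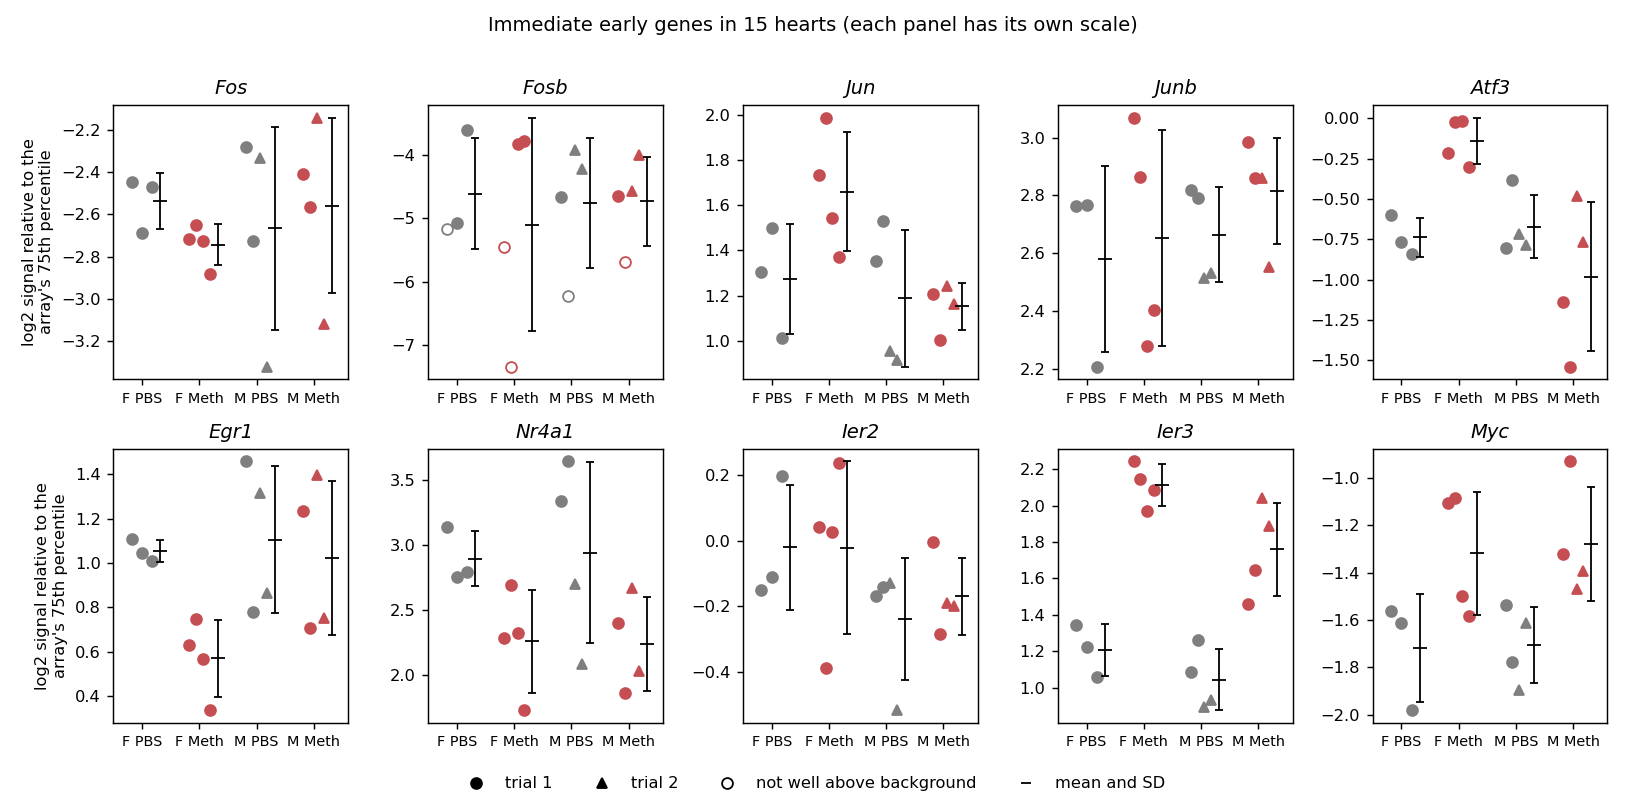
Normalized log2 signal of the lead probe of each gene on every array, with circles for trial 1, triangles for trial 2, open symbols for spots not well above background, and black bars for the group mean and SD (n = 3 for female PBS, 4 for each other group). Ier3 is the panel in which Meth arrays lie above all PBS arrays in both sexes, from 1.46 to 2.24 against 0.89 to 1.34.

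Fos and Fosb encode the leucine zipper proteins that pair with Jun proteins to form AP-1. The Fos probe, printed in 10 spots per array, read -2.28 and -2.73 in PBS males of trial 1 and -2.33 and -3.32 in those of trial 2. Meth males read -2.41 and -2.57 in trial 1 and -2.14 and -3.12 in trial 2. PBS females read -2.45, -2.69 and -2.47, and Meth females -2.72, -2.65, -2.72 and -2.88. The groups overlapped in both sexes, and the lowest male arrays, 1 of each treatment, both came from trial 2. The log2 fold change of Fos was 0.11 ± 0.22 (standard error) in males and -0.21 ± 0.24 in females, with adjusted p = 0.891 and 0.849 in limma. The 95% interval ran from -0.38 to 0.59 in males and from -0.73 to 0.31 in females, so a change of 1 log2 unit in either direction lay outside it in both sexes.

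Fosb was near the detection limit, with signal well above background on 10 of 15 arrays. Its values ran from -7.34 to -3.60. Its SD, pooled within each group and trial, was 1.16, larger than that of 99.8% of the probes tested. Female arrays of slide 4 read -3.82 to -3.60, and the other females -7.34 to -5.07. Meth over PBS gave a log2 fold change of 0.03 ± 0.70 in males and -0.49 ± 0.76 in females, and the intervals, -1.50 to 1.56 and -2.14 to 1.17, were wide.

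Jun and Junb encode the partners of Fos in AP-1. Jun read 1.35 and 1.53 in PBS males of trial 1, 0.95 and 0.91 in those of trial 2, and 1.21, 1.00, 1.24 and 1.16 in Meth males. It read 1.31, 1.50 and 1.01 in PBS females and 1.73, 1.99, 1.54 and 1.37 in Meth females, where only the lowest Meth array fell below the highest PBS array. The female log2 fold change was 0.39 ± 0.17 (unadjusted p = 0.0418, adjusted p = 0.424 in limma) and the male one -0.04 ± 0.16 (adjusted p = 0.954). Junb, by its lead probe, read 2.51 to 2.82 in PBS males, 2.55 to 2.98 in Meth males, 2.21 to 2.77 in PBS females and 2.28 to 3.07 in Meth females. Female arrays of slide 4 read 2.21 to 2.40, and the other females 2.76 to 3.07. The log2 fold change of Junb was 0.15 ± 0.17 in males and 0.07 ± 0.19 in females, and its other probe gave 0.20 ± 0.11 and 0.05 ± 0.12.

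Atf3 encodes a stress-induced leucine zipper factor of the ATF family that acts mostly as a repressor. It read -0.60, -0.77 and -0.84 in PBS females and -0.21, -0.02, -0.02 and -0.30 in Meth females, so the female groups did not overlap. In PBS males it read -0.81 and -0.38 in trial 1 and -0.72 and -0.78 in trial 2. Meth males of trial 1 were the lowest of all arrays, -1.14 and -1.54, and those of trial 2, -0.48 and -0.77, lay among the PBS values. Meth minus PBS on the log2 scale was 0.60 ± 0.19 in females (unadjusted p = 0.00731, adjusted p = 0.197) and -0.31 ± 0.17 in males (adjusted p = 0.496). The difference between the sexes, -0.91 ± 0.25, had an unadjusted p of 0.00375 and an adjusted p of 0.369, the smallest among the members. No member was called for a difference between the sexes (background 0.138%). Among the lead probes that of Atf3 alone had an unadjusted p under 0.05, where 8.67% of all probes did, and the dimmest Myc probe, which is not its lead, gave 0.60 ± 0.24 (unadjusted p = 0.0295, adjusted p = 0.548).

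Egr1 encodes the zinc finger factor of the early growth response family. PBS females read 1.11, 1.05 and 1.01 and Meth females 0.63, 0.75, 0.57 and 0.34, without overlap. PBS males read 1.46, 0.78, 1.31 and 0.87 and Meth males 1.23, 0.71, 1.40 and 0.75, each pair of values in the order of trial and replicate, so the spread inside each male group was wider than the gap between them. In females the log2 fold change was -0.48 ± 0.20 (unadjusted p = 0.0316, adjusted p = 0.375), and in males it was -0.08 ± 0.18 (adjusted p = 0.899).

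Nr4a1 encodes Nur77, an orphan nuclear receptor. It read 3.34 and 3.65 in PBS males of trial 1 against 2.40 and 1.86 in Meth males of the same trial, and 2.70 and 2.08 against 2.67 and 2.03 in trial 2. PBS females read 3.14, 2.75 and 2.79 and Meth females 2.28, 2.69, 2.32 and 1.73. Meth arrays therefore lay below all PBS arrays in females and in trial 1 males, and alternated with them in trial 2. The log2 fold change was -0.70 ± 0.29 in males (unadjusted p = 0.0321, adjusted p = 0.329) and -0.64 ± 0.31 in females (adjusted p = 0.492). Averaged over the sexes it was -0.67 ± 0.21, with an unadjusted p of 0.00839 and an adjusted p of 0.134.

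Ier2 and Ier3 are named for their early induction. Ier2, a small nuclear protein with a role in transcription, read between -0.39 and 0.24 on 14 arrays, and -0.51 on the remaining one, a PBS male of trial 2. Its log2 fold change was 0.07 ± 0.14 in males and -0.00054 ± 0.15 in females, with intervals of -0.23 to 0.37 and -0.32 to 0.32.

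Ier3 encodes a short-lived membrane-associated protein, also known as IEX-1, that modulates apoptosis and NF-kB and ERK signalling, and it is not itself a DNA-binding factor. PBS females read 1.34, 1.22 and 1.06 and Meth females 2.24, 2.14, 1.97 and 2.09. PBS males read 1.09 and 1.26 in trial 1 and 0.89 and 0.93 in trial 2, and Meth males 1.46 and 1.65 in trial 1 and 2.04 and 1.89 in trial 2. Every Meth array was above every PBS array of either sex. Its SD, pooled within each group and trial, was 0.12, larger than that of only 23.1% of the probes tested. Fos and Nr4a1 stood at 84.3% and 84.5% by this measure. Over both trials together the SD of Ier3 was 0.26 in Meth males and 0.17 in PBS males.

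The log2 fold change of Ier3 in males was 0.71 ± 0.13, with an adjusted p of 0.0223. In females it was 0.90 ± 0.14, with an adjusted p of 0.0144. Averaged over the sexes it was 0.81 ± 0.09, a 1.75-fold rise (adjusted p = 0.001), and the sexes differed by -0.19 ± 0.19 (adjusted p = 0.827, interval -0.60 to 0.22). In an exact two-sided permutation test of the group means, p was 0.0286 in each sex, the smallest these group sizes allow. Egr1 and Atf3 in females and Myc in males, by their lead probes, reached the same p without being called. Meth and PBS arrays did not overlap for 9.86% of all probes in males and 9.07% in females. Airway marker sums overlapped between Meth and PBS in females, where Bpifa1 was called higher, and did not overlap in males. Red blood cell sums overlapped in both sexes. All 3 red blood cell markers tested had estimates above 0 in each sex and, in the mean over the sexes, an unadjusted p under 0.05, where 15.3% of all probes did. These means were 0.52 for Hba-a1, 0.60 for Alas2 and 0.76 for Slc4a1, with adjusted p from 0.161 to 0.272 in limma. The part of either cell type in the rise of Ier3 was not tested.

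The call in males depended on single arrays. It was lost, with adjusted p from 0.0545 to 0.087 and a log2 fold change from 0.62 to 0.75, without male Meth trial 1 replicate 2, male PBS trial 1 replicate 1, or any of the 4 trial 2 arrays in turn. In females it was lost without PBS replicate 2 (0.91, adjusted p = 0.0754) and when same-numbered female arrays, which share a slide, were paired by a block (0.91, adjusted p = 0.0749). Fitted on the arrays of 1 sex alone, the adjusted p was 0.0889 in males and 0.0624 in females, and normexp background correction gave 0.63 (adjusted p = 0.0707) in males. The mean over both sexes passed in all 26 alternative settings in which it was fitted, with log2 fold changes from 0.64 to 0.86. Fits of 1 sex alone and the paired comparison that the methods name gave no such mean. Ier3 did not pass in either sex under these settings.

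Myc encodes the growth-promoting basic helix-loop-helix factor. By its lead probe, printed in 10 spots, PBS males read -1.54, -1.78, -1.90 and -1.61 and Meth males -1.32, -0.93, -1.47 and -1.39, without overlap. PBS females read -1.56, -1.61 and -1.98 and Meth females -1.11, -1.09, -1.50 and -1.58, where the lowest Meth array fell just inside the PBS range. The log2 fold change was 0.43 ± 0.15 in males (unadjusted p = 0.0128, adjusted p = 0.233) and 0.40 ± 0.16 in females (unadjusted p = 0.0263, adjusted p = 0.347). The mean over both sexes was 0.41 ± 0.11 (adjusted p = 0.0673), and this value passed in 4 of 26 alternative settings. Blocks changed the call: pairing same-numbered arrays, which share a slide, gave 0.46 (adjusted p = 0.0456 in limma). Slide as a block gave 0.45 (adjusted p = 0.011). Another probe gave 0.31 ± 0.14 and 0.46 ± 0.15, and the last, dimmer one gave 0.43 ± 0.17 in males but -0.17 ± 0.18 in females, so the probes disagreed in females.

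**Figure D2:**
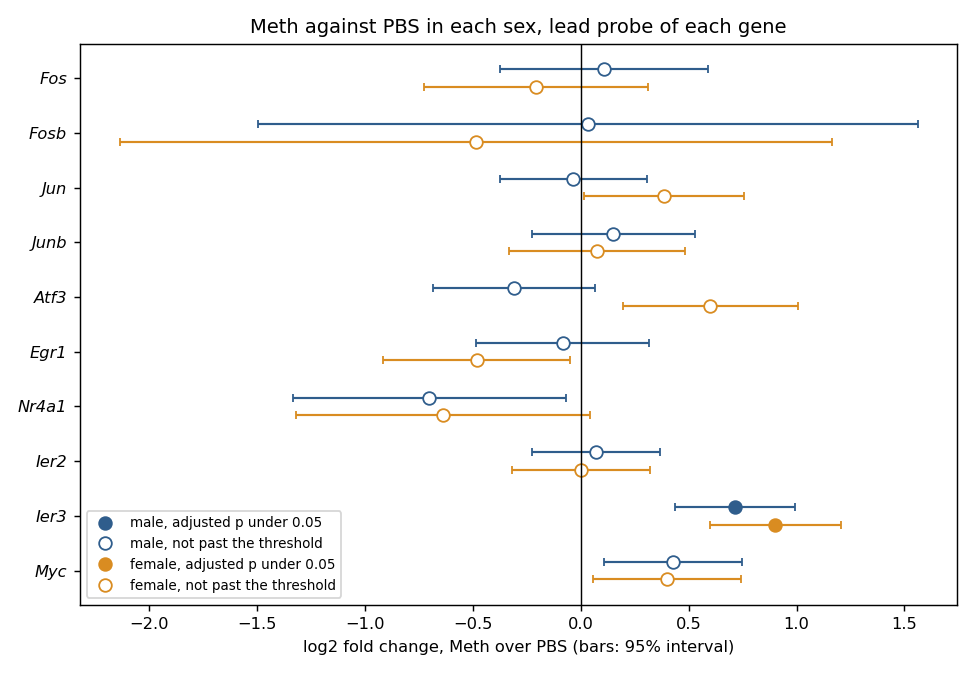
Log2 fold change of Meth over PBS for the lead probe of each gene in males (blue) and females (orange), with 95% intervals from limma and filled circles for an adjusted p under 0.05. Both Ier3 points, 0.71 and 0.90, are filled, and the intervals of Fosb span more than 3 log2 units.

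Without adjustment, 3 members in males (Nr4a1, Ier3 and Myc) and 5 in females (Jun, Egr1, Atf3, Ier3 and Myc) had a p under 0.05, where 12.8% and 11.0% of all probes did. The lead probes of 2 members, Ier3 and Myc, did not overlap between Meth and PBS males (9.86% of all probes), and those of 4, Egr1, Atf3, Nr4a1 and Ier3, did not overlap in females (9.07%). The median log2 fold change of the 10 members was 0.05 in males and 0.04 in females, against -0.03 and 0.00065 over all probes. Averaged over the sexes, Ier3 alone was called (background 2.65%), and 3 members, Nr4a1, Ier3 and Myc, had an unadjusted p under 0.05 (15.3% of all probes). Between PBS males and PBS females no lead probe passed in limma, either at an adjusted p under 0.05 (background 0.480%) or at an unadjusted p under 0.05 (15.2%), and the dimmest Myc probe gave -0.64 ± 0.20 for males minus females on the log2 scale (unadjusted p = 0.00691, adjusted p = 0.172).

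The second trial allowed the male response to be read in separate cohorts, with 2 Meth and 2 PBS arrays in each. In trial 2, Ier3 was the member called, with a log2 fold change of 1.05 ± 0.13 (adjusted p = 0.00493, background 0.356%). In trial 1 it was 0.38 ± 0.13 (adjusted p = 0.426), and none of the members was called (background 0.300%). There, 4 members had an unadjusted p under 0.05 (7.29% of all probes): Ier3, Myc with 0.53 ± 0.21, Nr4a1 with -1.36 ± 0.33 and Atf3 with -0.75 ± 0.18, the last 2 each with an adjusted p of 0.149. In trial 2, Nr4a1 gave -0.04 ± 0.33 and Atf3 0.13 ± 0.18.

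The difference between the trials was tested itself. It was 1.32 ± 0.46 for Nr4a1, 0.87 ± 0.25 for Atf3, 0.67 ± 0.18 for Ier3 and 0.61 ± 0.27 for Jun. These 4 members had an unadjusted p under 0.05, from 0.00315 for Ier3 to 0.0488 for Jun, where 4.56% of all probes did. None passed after adjustment in limma, the smallest adjusted p being 0.874, and no probe on the array did (background 0%). The trials were also hybridised on different slides and scanned in different sessions, so trial, slide and scan cannot be told apart in males.

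**Figure D3:**
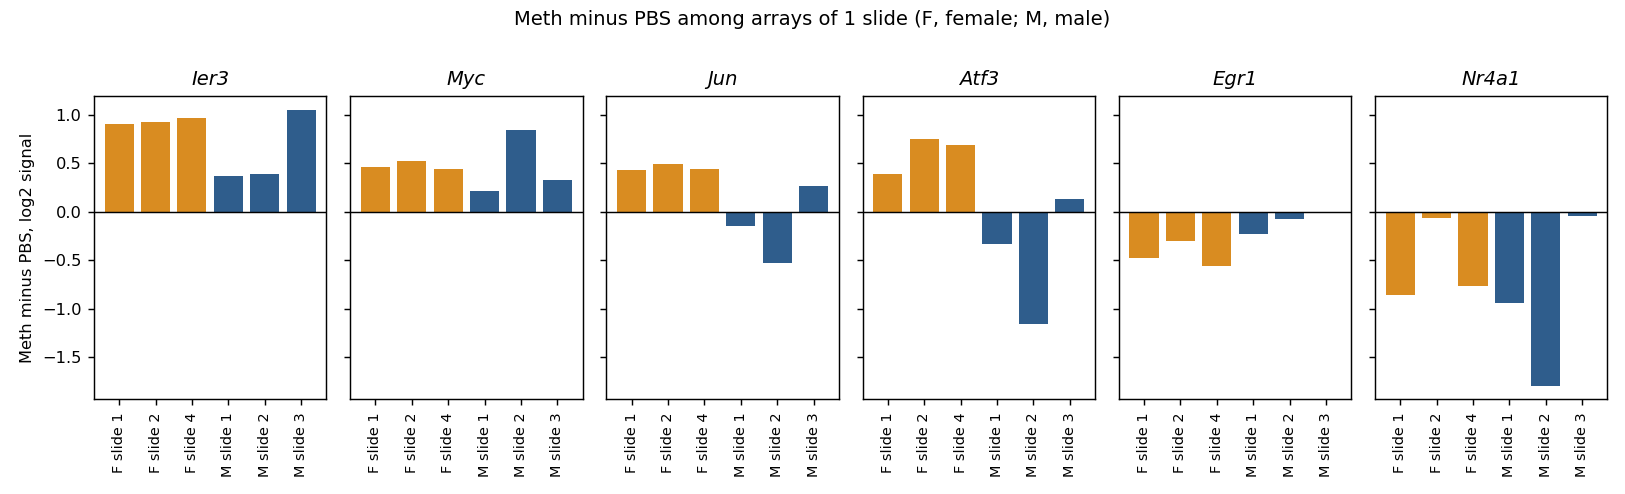
Meth minus PBS in normalized log2 signal among arrays of the same slide, for 6 members, with 1 bar per slide and sex (means where a slide holds 2 arrays of a group) and no test. Ier3 bars are all above 0, from 0.37 to 1.05, and Nr4a1 bars are all below 0, from -1.79 to -0.04.

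Slides held both treatments, which gave 6 differences within a slide. For Ier3 these were 0.90, 0.92 and 0.97 in females and 0.37, 0.39 and 1.05 in males, and for Myc 0.46, 0.53 and 0.44 in females and 0.21, 0.85 and 0.32 in males, all positive. Nr4a1 was negative within each slide, from -0.06 on slide 2 to -0.85 on slide 1 in females, and from -0.04 on slide 3 to -1.79 on slide 2 in males. Jun and Atf3 were positive within each slide in females, 0.43 to 0.49 and 0.39 to 0.75, and ran from -0.53 to 0.27 and from -1.16 to 0.13 in males. The Egr1 difference lay from -0.56 to -0.30 in females and from -0.23 to -0.02 in males.

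How far the early genes varied together from heart to heart was read against Fos, in 9 relations over 15 arrays. Egr1 followed Fos, with Pearson's r = 0.68 (permutation p = 0.00464, adjusted p = 0.0418) and Spearman's rho = 0.75 (permutation p = 0.00207, adjusted p = 0.0186). Without the 2 arrays farthest from the median of Fos, a Meth and a PBS male of trial 2, r was 0.78 (permutation p = 0.0018, adjusted p = 0.0162). On values centred within each slide r was 0.78 (permutation p = 0.00047, adjusted p = 0.00423). All permutations shuffled arrays freely, so the p-values take no account of shared slides and treatment groups, or of the slide means removed by centring. Within the 8 Meth arrays r was 0.78 (exact p = 0.0227, adjusted p = 0.204) and within the 7 PBS arrays 0.74 (exact p = 0.0498, adjusted p = 0.448), so neither group passed alone. Nr4a1 gave r = 0.49 (permutation p = 0.0659, adjusted p = 0.297), and the other 7 members gave r from -0.14 for Atf3 to 0.29 for Junb, with adjusted p of 0.881 or above. Ier3, the member called higher after Meth, gave r = -0.09 (permutation p = 0.751, adjusted p = 0.908). Without the same 2 arrays it gave r = -0.66 (permutation p = 0.0131, adjusted p = 0.0589), so its value rests on those arrays.

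**Figure D4:**
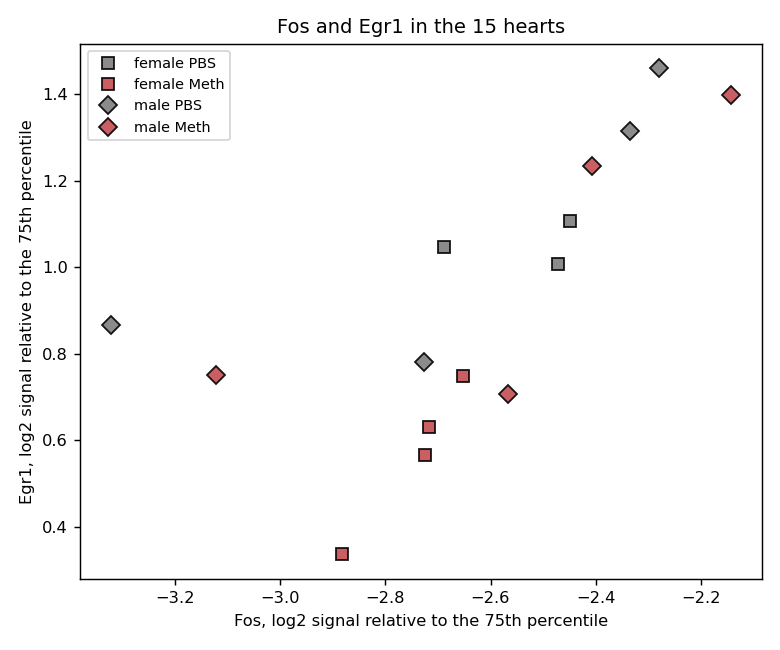
Normalized log2 signal of Fos and Egr1 on each of the 15 arrays, with squares for females, diamonds for males, grey for PBS and red for Meth. Arrays with high Fos tend to have high Egr1, r = 0.68 over the 15, and Meth and PBS males lie along the same range.

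Outside the set, the 10 genes whose signal was most like that of Fos over the 15 arrays, of 12592 genes well above background on all of them, were Dapk3 (r = 0.71), Sec13, Adat2, Dicer1, Mtmr11, Aldh3a2, Cst3, Unk, Pter and Piezo2 (r = 0.64). Egr1, left out of this ranking as a member, had an r of 0.681, between those of Sec13 (0.685) and Adat2 (0.680). The same ranking outside the set was made for Ier3 after its values had been seen. It was led by Trib1 (r = 0.96), Rasgef1b (0.94), Mst1r (0.92), Osgin1 (0.91), Tspan5 (0.91), Mxd1 (0.91), Rhobtb1, Tspan4, Per2 (0.90) and Fgf7 (0.88). The 15 points behind each r share slides and treatment groups, so genes that differ between Meth and PBS in the same direction rank high, and no p is given.

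Other genes of the early response were read from gene lists. Among 33 tested early regulators that are not transcription factors, Trib1, a pseudokinase of the Tribbles family, rose in both sexes. It rose by 0.38 ± 0.08 (adjusted p = 0.0404) in males and by 0.49 ± 0.08 (adjusted p = 0.0242) in females. No other member of this list was called in either sex (background 1.11% in males and 0.758% in females). In limma 10 had an unadjusted p under 0.05 in males (12.8% of all probes) and 8 in females (11.0%). Averaged over the sexes, Trib1 and Arc, a synaptic early gene product, rose (0.43 and 0.39) and Errfi1, a feedback inhibitor of EGF receptors, fell by 0.27. Adjusted p ran from 0.00224 to 0.0273 (background 2.65%), and 9 of the 33 had an unadjusted p under 0.05 (15.3% of all probes). Estimates in this list ran from -0.46 for Cdkn1a to 0.68 for Ctgf in males and from -1.96 for Dusp1 to 0.76 for Ptgs2 in females, none of these 4 called. The female Dusp1 estimate had a standard error of 1.44, with signal well above background on 3 of 4 Meth arrays. The median of the list was 0.09 in males and 0.07 in females, against -0.03 and 0.00065 over all probes.

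Of the 12 tested AP-1 and ATF partners, Ddit3, the stress factor also known as CHOP, rose in females by 0.46 ± 0.09 (adjusted p = 0.0462, background 0.758%). None was called in males, where Maff had the highest estimate, 0.28, and Fosl2 the lowest, -0.27. In limma 1 partner had an unadjusted p under 0.05 in males (12.8% of all probes) and 5 in females (11.0%). Averaged over the sexes, Maff rose by 0.34 (adjusted p = 0.0382) and Ddit3 by 0.29 (adjusted p = 0.0353), with a background of 2.65%. In this mean 4 partners had an unadjusted p under 0.05 (15.3% of all probes). Of the 16 other early transcription factors tested, limma called none in either sex, and 7 had an unadjusted p under 0.05 in males, where 12.8% of all probes did, and 4 in females, where 11.0% did. Averaged over the sexes, Cebpd rose by 0.37, Bhlhe40, also a regulator of the clock, rose by 0.46 and Hes1, the Notch target, fell by 0.27. Adjusted p ran from 0.0217 to 0.0368 (background 2.65%), and 8 of the 16 had an unadjusted p under 0.05 (15.3% of all probes). Cebpb (0.97 ± 0.26, adjusted p = 0.12) and Nfil3 (-0.81 ± 0.24, adjusted p = 0.157) had the highest and lowest male estimates of that list without passing.

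Listed family members and cofactors of Egr1 and Nr4a1 gave no call. Of these 7 genes 4 were tested, the family members Egr2 and Nr4a2 and the EGR cofactors Nab1 and Nab2. Their estimates ran from -0.10 to 0.31 over both sexes, with no unadjusted p under 0.05 in limma. Egr3, Egr4 and Nr4a3 were not well above background on any array. None of the 8 Myc partners tested was called in limma (medians 0.14 in males and 0.17 in females), and 3 in males and 2 in females had an unadjusted p under 0.05 (12.8% and 11.0% of all probes). None of the 16 kinases and factors upstream of early gene promoters was called either (medians -0.07 and 0.03), and 2 in males and 0 in females had an unadjusted p under 0.05, against the same shares of all probes. Their estimates ran from -0.27 for Mkl2 to 0.12 for Crem over both sexes.

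Of the 14 circadian genes tested, 8 rose and 1 fell in males (background 1.11%), 2 rose and 1 fell in females (0.758%), and 10 rose and 2 fell in the mean of both sexes (2.65%). Per2, a repressor of the clock, rose by 1.97 ± 0.24 (adjusted p = 0.00187) in males and by 2.04 ± 0.26 (adjusted p = 0.00695) in females, and Arntl, its activator also known as Bmal1, fell by 2.40 (adjusted p = 0.00521) and 1.81 (adjusted p = 0.0444). The medians of the list, 0.78 in males and 0.57 in females, compare with -0.03 and 0.00065 over all probes. This list was chosen with its movement in these arrays known and is not independent evidence. Per2 and Ier3 were both higher in Meth than in PBS in each sex, and the part of circadian time in the rise of Ier3 was not tested.

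**Figure D5:**
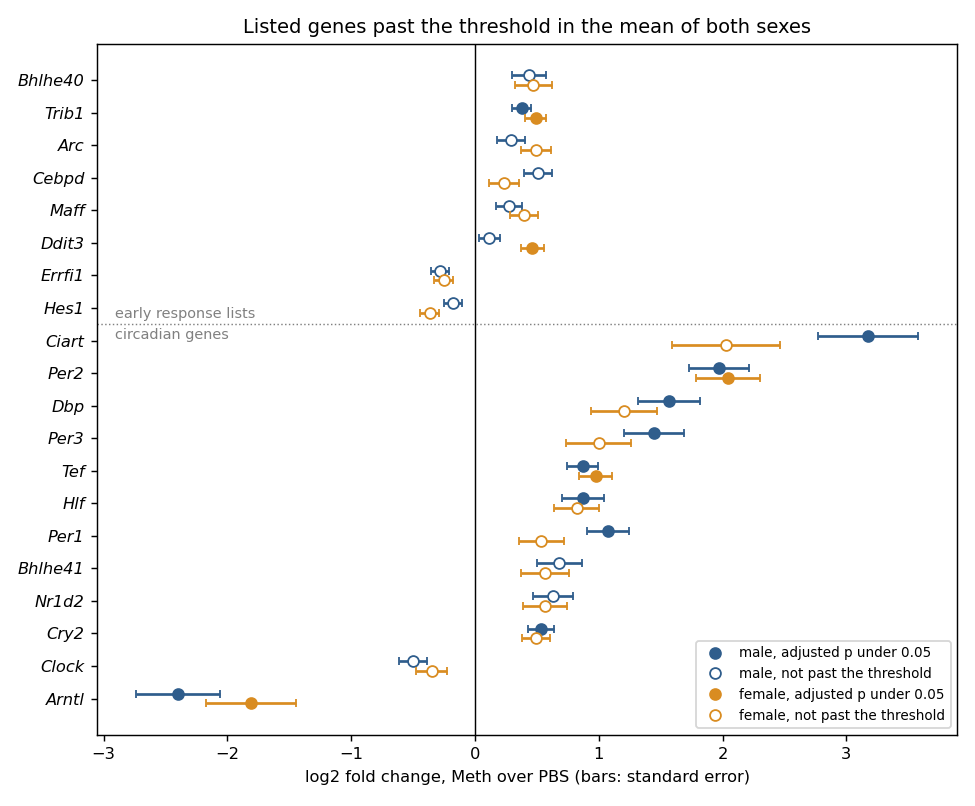
Log2 fold change of Meth over PBS in males (blue) and females (orange) for the listed genes past the threshold in the mean of both sexes, with standard errors from limma and filled circles for an adjusted p under 0.05 in that sex. Early response genes above the dotted line stay between -0.37 and 0.51, and circadian genes below it reach 3.18 for Ciart in males and -2.40 for Arntl.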

How the data were processed

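Cy3-labelled heart RNA was hybridised to Agilent 1-colour mouse arrays, 4 per slide, and the authors extracted a background-subtracted intensity per spot, deposited without normalization between arrays (Feature Extraction 10.5.1.1 per the file headers, 9.1 in the submitters' processing notes). The authors also deposited log2 values for the same arrays, which equal the log2 intensity plus a constant per array and were used as an alternative. The members and gene lists were chosen with earlier results of these data known.

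Control spots and outlier flags were left out, log2 intensities were averaged per probe, and the 75th percentile of these values was subtracted from each array. A probe was tested if at least 3 of the 15 arrays flagged it well above background, which 28358 probes met, and 61.4% to 71.4% of probes were well above background per array. No spot was saturated. The number of arrays limits the precision. One fit with limma 3.58.1 (lmFit, eBayes; R 4.3.3) held 4 groups and trial, with Benjamini-Hochberg adjustment over all probes tested and a threshold of 0.05. The male trials were compared in a fit of 6 groups. Correlations used 100000 permutations, or exact pairings under 10 arrays (scipy 1.17.1). Named genes were all members, the called and extreme members of each list, and the 10 genes outside the set most like Fos. Symbols were assigned by matching the accession of each probe to a RefSeq gene table, with 26918 probes named and the others left without a symbol.

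The fit was tested on simulated data at these group sizes. It recovered 83.0% of changes of 1 log2 unit in males and 69.5% in females, and 96.0% and 92.0% of changes of 2 units. Smaller changes were not simulated. The simulated noise was independent between arrays and held no slide or trial effect. Replicate numbers were checked for pairing, and same-numbered Meth and PBS arrays of a sex and trial share a slide. Same-numbered female arrays deviated together (r = 0.30, 0.44 and 0.66, across probes), and male pairs did not (-0.09 in trial 1 and 0.01 in trial 2). In females, Meth 1 with PBS 2 and Meth 2 with PBS 1, on different slides, gave r = 0.63 and 0.54. The female values therefore do not single out a pairing by replicate number. Alternatives were normexp background correction on the median pixel signal, quantile and median scaling, the deposited log2 values, other probe filters, other trial terms, replicate and slide blocks, subsets of arrays, the paired t-test that the methods name, and each array left out.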

Additional observations from a re-analysis of the deposited data

Results flagged for a closer look

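Among 30 groups of 4 arrays tested for a sample far from the others, of which chance marks about 1 in 20, a single one stood out. Ier2 read -0.51 on the array of PBS male 2 of trial 2, against -0.17 to -0.13 on the other PBS male arrays. For Jun, both Meth arrays were below both PBS arrays in trial 1 males and above both in trial 2 males. The Meth effect of trial 2 minus that of trial 1 was 0.61 on the log2 scale, and limma gave it an unadjusted p of 0.0488, where 4.56% of all probes had one under 0.05.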

How the results depend on the processing

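In males the count of members called, 1, fell to 0 under normexp, the replicate block, the arrays of 1 sex alone, trial 1 alone and the methods' t-test, and lay between 0 and 1 with single arrays left out. In females it fell to 0 under the replicate block, 1 sex alone and the t-test, and lay between 0 and 1 with single arrays left out. The t-test had 7 pairs in all and called no probe after adjustment, with 4310 probes in males and 2816 in females at an unadjusted p under 0.05. The mean over both sexes gained a second member, Myc (2 called), under the filter on all 15 arrays (adjusted p = 0.0492), trial from the source name (0.0119), the replicate block (0.0456) and the slide block (0.011). No other count of members called changed, and the cause of these changes was not tested.

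Among the log2 fold changes of members, 57 changed sign, none of them of a called result. In males, Fosb was -0.079 under normexp, -0.044 under quantile scaling and -0.0014 under the median shift. In females, Fosb was 0.20 under normexp, and Ier2 was 0.063 under normexp, 0.00040 under quantile scaling and 0.075 under the median shift. For the difference between the sexes, Fosb was -0.28 under normexp, Nr4a1 0.040 under quantile scaling, and Ier2 -0.0018 under normexp and -0.037 under the median shift. Junb was -0.031 under the median shift, -0.0064 with the replicate block and -0.023 with the slide block. Myc was -0.062 under normexp, -0.016 under quantile scaling, -0.081 under the median shift, -0.024 with the source name's trial, -0.062 with the replicate block and -0.044 with the slide block. The median shift moved the median difference between the sexes over all probes from -0.02 to -0.12.

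With single arrays left out, the male estimates ranged from -0.11 to 0.29 for Fos, -0.33 to 0.29 for Fosb, -0.11 to 0.065 for Jun, -0.23 to 0.066 for Egr1 and -0.019 to 0.14 for Ier2. The female ones ranged from -0.93 to 0.26 for Fosb, -0.11 to 0.20 for Junb and -0.087 to 0.12 for Ier2. The differences ranged from -0.23 to 0.96 for Fosb, -0.048 to 0.26 for Junb, -0.32 to 0.18 for Nr4a1, -0.051 to 0.16 for Ier2 and -0.072 to 0.16 for Myc.

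Correlations with Fos turned sign for Fosb on slide-centred values (0.035) and in PBS arrays (0.090), for Jun on slide-centred values (-0.12), in Meth arrays (-0.11) and without the 2 farthest arrays (-0.28), for Ier2 in Meth arrays (-0.21) and without the 2 farthest arrays (-0.077), for Ier3 in PBS arrays (0.17) and for Myc in Meth arrays (0.10). That of Egr1 no longer passed within Meth arrays (0.78) or PBS arrays (0.74).

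Over all probes and apart from the t-test, 314 were called in males, from 43 in trial 1 alone to 525 with the slide block, and 215 in females, from 21 with the females alone to 411 with the slide block. For the mean over both sexes 751 were called, from 111 under normexp to 1253 with the slide block. The female calls were 58 higher and 157 lower, against 73 and 51 under the median shift, 49 and 83 under quantile scaling and 20 and 7 under normexp.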
